A study of Mus musculus with 45 samples.

Results

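The transcripts of 10 replication licensing genes were followed from fully grown oocytes (FGOs) to late two-cell embryos: Mcm2, Mcm3, Mcm4, Mcm5, Mcm6, Mcm7, Cdc6, Cdt1, Gmnn and Orc1. They were chosen by gene symbol, and all 10 were found among the 26214 genes of the table. Licensing prepares chromosomes for replication before S phase: the origin recognition complex, of which ORC1 is the largest subunit, marks origins, and with CDC6 and CDT1 it loads the ring-shaped MCM helicase, made of MCM2 to MCM7, onto DNA. Geminin, the product of Gmnn, binds CDT1 and prevents a further round of loading in S and G2 phase. A fully grown oocyte is arrested in meiotic prophase and does not replicate its DNA, but it stores proteins and transcripts that the embryo uses for its earliest replications. Much of this maternal RNA is degraded as the embryonic genome becomes active at the two-cell stage.

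RNA-seq was performed to learn how expression of H3.3 with a lysine-to-methionine change at position 36 (H3.3K36M), which lowers H3K36me2, affects oocytes and the embryos derived from them. Control females were H3f3b K36M-flox/+ without Cre, and K36M females were H3f3b K36M-flox/+; Gdf9-Cre, in which the oocyte-specific Gdf9 promoter drives Cre and the knock-in allele gives HA-tagged H3.3K36M. The controls thus carried the allele unrecombined. Both were hybrid C57BL/6 / 129. There were 3 control and 3 K36M libraries of pooled FGOs, from females of 3 to 4 weeks, and single late two-cell embryos taken 31 to 32 h after fertilization in vitro with JF-1 sperm, 7 of them from control and 8 from K36M oocytes. A K36M oocyte-derived embryo can inherit either H3f3b allele from its mother, and the labels do not give the genotype of single embryos. Expression was given as TPM, a normalised transcript abundance that is corrected for gene length and sums to the same total in each library, so that levels of different genes can be set side by side. TPM keeps no read depth, so the reads behind a single value are unknown. Stage was tied to several other differences, since FGOs were pooled and embryos were single, embryos received more amplification cycles, came from superovulated females and carried a paternal JF-1 genome, and the study lists fewer total reads for every embryo library than for any FGO library. These cannot be told apart from development itself.

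Control two-cell replicate 4 was left out by the study for a technical problem and stands in none of the main comparisons, which used 21 of 22 libraries. Between 16707 and 18559 genes had a TPM above 0 in FGO libraries, 12115 to 17329 in the 7 control embryos and 10894 to 14879 in the 8 K36M oocyte-derived embryos. The targeted gene, H3f3b, had TPM means of 293.1 ± 24.6 for control and 398.1 ± 20.8 for K36M FGOs (SD, n = 3 each), and this total does not separate the mutant from the normal transcript. The stages matched their labels: the summed TPM of 8 oocyte markers was 15447 to 17982 in FGOs and 1093 to 4451 in the 15 embryos, and that of 8 genes of zygotic genome activation was 34.5 to 73.9 in FGOs and 270.4 to 2440 in embryos. Zscan4f, one of these 8, was listed at 0 in all FGO libraries. Of 12 markers of granulosa and cumulus cells, the cells that surround an oocyte, the summed TPM was 114.8 to 211.9 in FGOs and 69.4 to 426.6 in embryos, with none at 0 throughout a group. Nr5a2 made up most of this sum in the median library (63.6% of it in FGOs and 87.1% in embryos), and the other 11 summed to 37.7 to 72.0 in FGOs and 0.959 to 150.9 in embryos. The 8 markers of stroma and blood summed to 2.49 to 9.08 in FGOs and 3.53 to 86.6 in embryos, and Hba-a1 was at 0 in every FGO library.

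The MCM genes are shown first by their promoters, since genes of replication licensing are textbook targets of E2F transcription factors. Windows upstream of a start site, from RefSeq on GRCm38.p6 (mm10), were read for 8 of the 10 genes, and those of Mcm4 and Gmnn were not analysed here. In the 250 bases upstream, the E2F letters TTTCCCGC, TTTGGCGC, TTTCGCGC or TTTGCCGC were searched on both strands, as was CCAAT, the letters bound by NF-Y. The E2F letters were in the windows of 5 of the 8 genes (Mcm5, Mcm6, Mcm7, Cdc6 and Orc1), against 2.16% of all 27025 genes with a window and 1.86% of all 32851 windows. CCAAT was in those of 6 of the 8 (Mcm2, Mcm3, Mcm5, Mcm6, Mcm7 and Orc1), against 37.5% of all genes and 33.8% of all windows. Such a match describes letters and not a bound site. The 4 windows that follow are sense-strand sequences, with matches to either motif on either strand in capitals, and show how the MCM genes differ: Mcm2 at chr6:88898781-88899030 (minus strand), Mcm3 at chr1:20820313-20820562 (minus), Mcm5 at chr8:75109259-75109508 (plus) and Mcm6 at chr1:128359706-128359955 (minus).
Mcm2: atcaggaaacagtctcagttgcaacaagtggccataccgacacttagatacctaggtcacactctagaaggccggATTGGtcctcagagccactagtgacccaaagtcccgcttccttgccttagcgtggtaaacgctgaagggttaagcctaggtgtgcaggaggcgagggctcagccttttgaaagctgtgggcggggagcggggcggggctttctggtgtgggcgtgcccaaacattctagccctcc
Mcm3: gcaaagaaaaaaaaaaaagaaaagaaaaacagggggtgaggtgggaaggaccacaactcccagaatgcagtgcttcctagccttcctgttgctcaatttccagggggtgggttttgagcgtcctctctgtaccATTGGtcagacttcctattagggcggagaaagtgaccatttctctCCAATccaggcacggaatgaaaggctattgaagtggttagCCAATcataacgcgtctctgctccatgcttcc
Mcm5: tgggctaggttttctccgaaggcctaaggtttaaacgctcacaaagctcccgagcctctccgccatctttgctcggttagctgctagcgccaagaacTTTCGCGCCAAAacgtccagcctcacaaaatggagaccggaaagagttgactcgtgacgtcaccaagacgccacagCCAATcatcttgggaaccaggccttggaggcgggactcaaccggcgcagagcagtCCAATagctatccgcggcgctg
Mcm6: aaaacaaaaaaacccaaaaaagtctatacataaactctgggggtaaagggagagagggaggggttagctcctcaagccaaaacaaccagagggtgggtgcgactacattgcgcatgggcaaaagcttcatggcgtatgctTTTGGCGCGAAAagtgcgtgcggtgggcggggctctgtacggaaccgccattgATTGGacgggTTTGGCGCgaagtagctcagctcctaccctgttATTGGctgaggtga

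Mcm2 held 1 CCAAT match and no E2F letters, and Mcm3 held 3 CCAAT matches and no E2F letters. The run of capitals in Mcm5 is a pair of E2F matches on opposite strands that overlap each other, and its downstream CCAAT match ended 18 bases before the start site. Mcm6 held a like overlapping pair and a further E2F match that ended 40 bases before the start site. Cdt1 held neither motif.

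The genes lie on 8 chromosomes of mm10. In the GENCODE annotation of that build, Mcm3 (chromosome 1, 20802968 to 20820312) and Mcm6 (chromosome 1, 128331590 to 128359664) share a chromosome, as do Mcm5 (chromosome 8, 75109569 to 75128439) and Cdt1 (chromosome 8, 122568015 to 122573554). Mcm2 is on chromosome 6 (88883474 to 88898780), Mcm4 on chromosome 16 (15623897 to 15637400), Cdc6 on chromosome 11 (98907801 to 98923940), Gmnn on chromosome 13 (24751845 to 24761923) and Orc1 on chromosome 4 (108579423 to 108614833). Mcm7 (chromosome 5, 138164583 to 138172422) shares exon bases with neighbours on the opposite strand, 321 with Ap4m1 and 64 with Cops6, and holds the microRNA genes Mir25, Mir93 and Mir106b. Whether the counting used strand is not given in the sources used here, so the TPM of Mcm7, and that of Orc1, which shares 376 exon bases with the antisense transcript Gm12743, may include reads of a partner.

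Control FGOs contained abundant licensing transcripts, and the libraries differed little among themselves. The mean TPM ran from 43.5 ± 2.89 (SD, n = 3) for Cdc6, the loader that recruits MCM to ORC, to 162.4 ± 5.74 (SD, n = 3) for Mcm4, which places all 10 genes between percentiles 82.0 and 94.5 of all genes. Below Mcm4 came Cdt1, Mcm2, Mcm6, Gmnn, Orc1, Mcm5, Mcm3, Mcm7 and Cdc6. Of the 45 pairs of genes, 41 stood in the same order in all 3 control libraries. Neighbours that did not were Mcm4 and Cdt1, Cdt1 and Mcm2, Gmnn and Orc1, and Mcm5 and Mcm3. In K36M FGOs 37 pairs kept one order in the 3 libraries, Cdt1 and Mcm4 led with 167.9 ± 16.1 and 167.2 ± 16.4 (SD, n = 3), and Mcm7 and Cdc6 were again the lowest. The median SD of log2(TPM + 1) over the 10 genes was 0.076 in control and 0.14 in K36M FGOs, against 0.19 and 0.25 over all genes whose mean TPM was 1 or more.

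**Figure D1:**
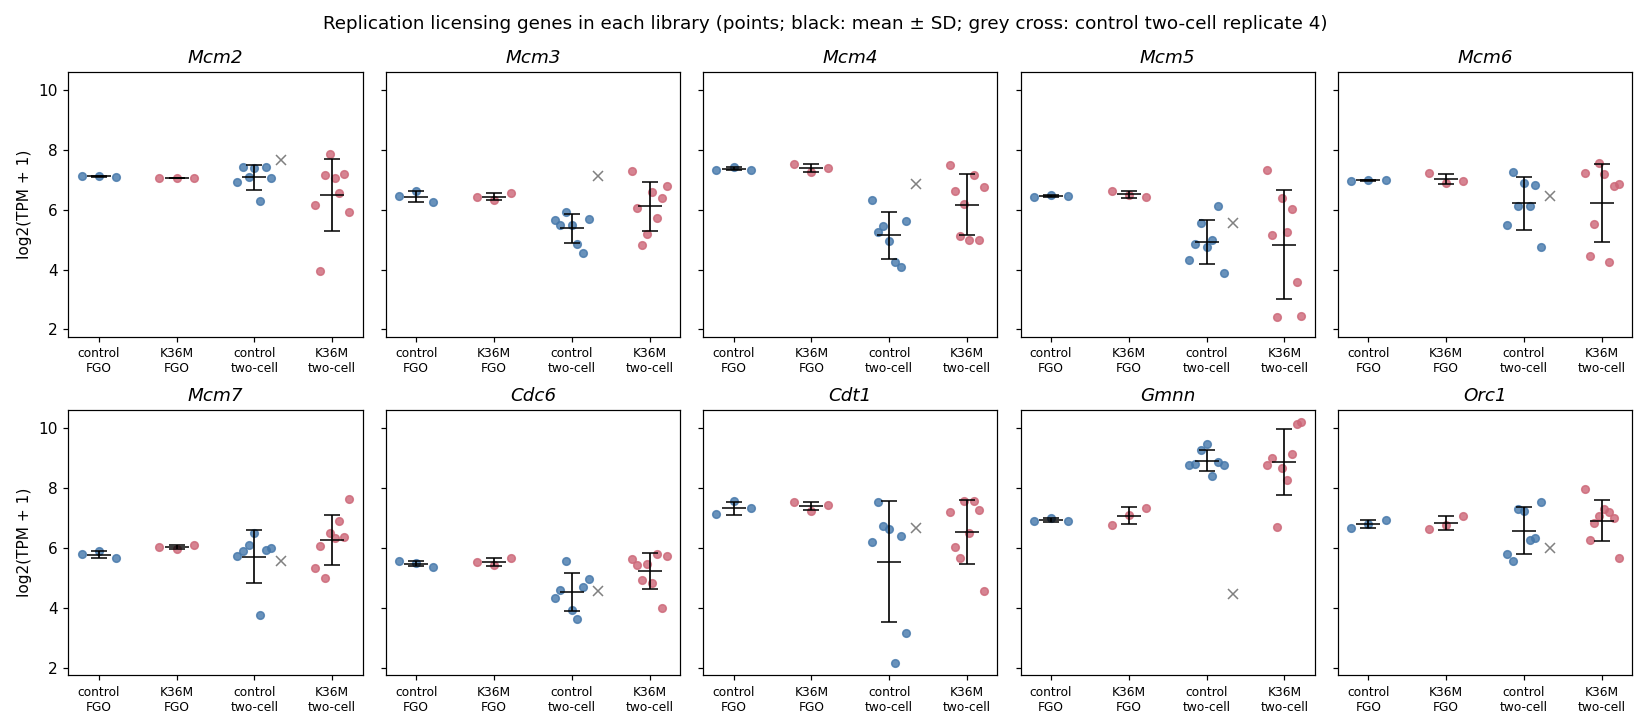
Level of each licensing gene as log2(TPM + 1) in every library of control FGOs (n = 3), K36M FGOs (n = 3), control two-cell embryos (n = 7) and K36M oocyte-derived two-cell embryos (n = 8), with the mean ± SD in black and control two-cell replicate 4, which was not used, as a grey cross. FGO points lie close together, embryo points are spread, Gmnn rises between the stages and Mcm4 falls in control embryos.

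To see whether H3.3K36M changed licensing transcripts in the oocyte, K36M FGOs were compared with control FGOs on log2(TPM + 1) with limma. None of the 10 genes passed an adjusted p of 0.05, where 0.00726% of the 13775 genes tested did (1 gene). None of the 10 had an unadjusted p under 0.05 either, against 10.5% of all genes. With 1 FGO library left out this share was 6.93% to 20.3%, the highest without K36M replicate 1, and 0 or 1 of the 10 had such a p. Their median log2 fold change was 0.05, beside 0.01 for all genes, and 8 of the 10 had a positive estimate. The estimates were precise: the median standard error (SE) was 0.12 over the 10 genes and 0.22 over all genes.

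Mcm7, which encodes an MCM subunit, had the largest estimate of the 10. Its TPM was 54.4, 58.1 and 49.0 in control FGO replicates 1, 2 and 3 and 63.8, 61.9 and 66.9 in K36M FGO replicates 1, 2 and 3. All K36M values lay above all control values, and the log2 fold change was 0.25 (SE 0.11, 95% interval -0.0038 to 0.51, adjusted p = 0.479). Groups that did not overlap in either direction were found for 15.6% of all genes tested, and for 2 of the 10 here. The other was Mcm2, at 137.4, 137.1 and 134.9 in control and 131.7, 133.1 and 130.7 in K36M FGOs. Its K36M values were all lower, by very little: the log2 fold change was -0.05 (SE 0.08, adjusted p = 0.852).

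The genes of MCM loading and its control overlapped between the FGO groups. Gmnn had a TPM of 118.3, 125.6 and 116.7 in control and 108.0, 136.8 and 159.3 in K36M FGOs, for a log2 fold change of 0.15 (SE 0.14, adjusted p = 0.714), with the K36M libraries on both sides of the controls. Cdt1 had a TPM of 137.2, 185.6 and 158.2 in control and 181.6, 150.2 and 171.9 in K36M FGOs, and its highest and lowest values were both controls. For Mcm4, the helicase subunit with the highest level, the TPM was 159.5, 169.0 and 158.7 in control and 184.2, 151.4 and 165.9 in K36M FGOs. Its log2 fold change was 0.04 with a 95% interval from -0.18 to 0.25. Mcm3, Mcm5, Mcm6, Cdc6 and Orc1 had log2 fold changes of -0.0014, 0.06, 0.05, 0.06 and 0.01, with standard errors of 0.10 to 0.13 and adjusted p of 0.866 or more from limma.

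In control two-cell embryos the order of the genes was different. Gmnn was the most abundant, with a TPM of 337.4, 443.9 and 710.7 (lowest, median and highest of 7 embryos), and lay above Mcm2, the next gene by its mean, in 7 of 7 embryos. Mcm2 had a TPM of 76.5, 133.4 and 171.9, close to its level in FGOs. After these came Orc1, Mcm6, Cdt1, Mcm7, Mcm3, Mcm4, Mcm5 and Cdc6, in an order that single embryos did not keep: 20 of 45 pairs stood alike in all 7 embryos. From Orc1 downwards, each gene lay above the next in 4 to 6 of the 7. In K36M oocyte-derived embryos 9 of 45 pairs stood alike in all 8, Gmnn led in 7 of 8 over Orc1, the next by its mean, and Cdc6 had the lowest mean in both groups.

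Embryos of K36M oocytes were compared with those of control oocytes in the same way. None of the 10 genes passed an adjusted p of 0.05, as was true of all 17362 genes tested (0%). At an unadjusted p under 0.05 there was 1 of the 10, Mcm4, against 7.71% of all genes (1.2% higher and 6.5% lower). With 1 embryo left out this share was 5.81% to 8.75%, and 0 to 2 of the 10 had such a p. The number was 0 without a trend (7.99% of all genes) and with array weights (8.98%). The median log2 fold change was 0.44 over the 10 genes, 7 of which had positive estimates, and -0.26 over all genes. With 1 embryo left out it was 0.26 to 0.55 over the 10 genes and -0.32 to -0.20 over all genes. Relative to the median of all genes, 9 of the 10 lay higher. After quantile normalization, which moved that median to -0.04, 8 did. Most other lists of replication genes, described below, also had medians above -0.26. They were 0.01 for kinases and ubiquitin ligases, -0.01 for origin firing and -0.08 for other origin factors. For the replication fork the median was -0.12, for E2F and RB -0.16, and for the other MCM paralogs -0.87. Lying above the median of all genes was thus not particular to the licensing genes. For none of the 10 were the groups without overlap, as for 0.115% of all genes.

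The 3 positive estimates with the largest size belonged to Mcm4, Cdt1 and Mcm3. Mcm4 had a TPM of 16.01, 37.2 and 79.4 (lowest, median and highest) in control and 30.4, 85.2 and 180.0 in K36M oocyte-derived embryos, for a log2 fold change of 1.03 (SE 0.48, 95% interval 0.03 to 2.03, unadjusted p = 0.0438, adjusted p = 0.636 from limma). K36M replicates 1, 2, 6 and 8 lay above the highest control, while replicates 3, 4, 5 and 7 lay inside the control range. Mcm3 had a TPM of 22.7, 43.7 and 59.4 in control and 27.4, 74.3 and 154.7 in K36M oocyte-derived embryos, for a log2 fold change of 0.73 (SE 0.42, adjusted p = 0.680 from limma). Cdt1, the loader that geminin inhibits, had 3.46, 82.8 and 182.8 in control and 22.6, 116.2 and 187.0 in K36M oocyte-derived embryos, for a log2 fold change of 0.99 (SE 0.68, adjusted p = 0.723 from limma). Its highest values were alike, and the low end of the control group was set by replicates 6 and 8, at 3.46 and 7.97. Without control replicate 6 the estimate was 0.43, the lowest with any embryo left out. The 95% intervals of Mcm3 (-0.14 to 1.60) and Cdt1 (-0.42 to 2.41) included 0.

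The other 7 genes had 95% intervals that included 0 as well. Cdc6 had a TPM of 11.3, 23.2 and 45.7 in control and 14.9, 42.8 and 54.9 in K36M oocyte-derived embryos. Its median was higher in the K36M group. Mcm7 had 12.7, 60.1 and 90.0 in control and 30.7, 80.3 and 198.3 in K36M oocyte-derived embryos. Orc1 had 46.1, 79.3 and 181.3 in control and 49.1, 129.6 and 245.5 in K36M oocyte-derived embryos. The log2 fold changes of Cdc6, Mcm7 and Orc1 were 0.70, 0.55 and 0.34, with standard errors of 0.46, 0.45 and 0.38. Without control replicate 6 the estimate of Mcm7 was 0.23, and without K36M replicate 8 it was 0.35. That of Orc1 was 0.17 to 0.52 with 1 embryo left out.

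The spread of the K36M group covered the control group for other subunits of the helicase. Mcm5 had a TPM of 13.8, 28.0 and 68.1 in control and 4.33, 35.6 and 157.6 in K36M oocyte-derived embryos, and Mcm6 had 26.0, 68.8 and 151.3 in control and 17.9, 111.7 and 187.4. Mcm2 had 14.6, 112.3 and 230.7 in K36M oocyte-derived embryos, against the control values given above, and the most negative estimate of the 10, -0.60 (SE 0.44, 95% interval -1.51 to 0.31), which was -0.24 without K36M replicate 2. Gmnn had 102.8, 472.1 and 1166 in K36M oocyte-derived embryos, with a log2 fold change of -0.05 (95% interval -0.80 to 0.71). With intervals this wide, equal levels were not shown.

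Between FGOs and two-cell embryos, Gmnn rose and Mcm4 fell. These comparisons came from 1 limma fit over the 21 libraries and 17358 genes. That fit takes 1 spread per gene for FGO pools and single embryos, though embryos differed far more. Its standard errors and p-values are thus approximate. From control FGOs to control embryos, 2 of the 10 genes passed an adjusted p of 0.05, against 26.6% of all genes (13.4% higher and 13.2% lower). That background was 16.4% to 16.6% without 1 of the control FGO libraries, with 2 of the 10 genes called each time, and 56.1% with array weights. From K36M FGOs to K36M oocyte-derived embryos it was 1 of 10, Gmnn, against 29.3% (10.8% higher and 18.6% lower). The median log2 fold change was -0.86 over the 10 genes and 0.00 over all genes in the control comparison, and -0.45 and -0.18 in the K36M comparison. Relative to the median of all genes, 9 of 10 genes lay lower in the control and 7 of 10 in the K36M comparison. Median-of-ratios scaling moved the median of all genes to -0.17 and -0.29. It shifts all genes of a library nearly alike, so it could hardly change those 2 counts. In both comparisons 8 of 8 oocyte markers fell and 7 of 8 genes of zygotic genome activation rose, and the part of this turnover in the values of the licensing genes was not tested. TPM is a share of the library, so it does not show the amount of RNA per oocyte or embryo. A gene's share can also change when other transcripts rise or fall.

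The mean Gmnn level was 120.2 ± 4.76 TPM over the 3 control FGO libraries and 489.9 ± 127.1 TPM over the 7 control embryos (SD), 4.08 times the FGO mean. Every control embryo lay above every control FGO library, and the log2 fold change was 1.98 (SE 0.46, 95% interval 1.02 to 2.94, adjusted p = 0.00254 from limma). In the K36M libraries the mean TPM was 134.7 ± 25.7 (SD, n = 3) in FGOs and 575.6 ± 379.2 (SD, n = 8) in embryos. Of these embryos 7 of 8 lay above the FGO range and replicate 3, at 102.8, below it, and the log2 fold change was 1.79 (SE 0.45, adjusted p = 0.00438 from limma). With any 1 library left out, the estimate was 1.88 to 2.06 in the control and 1.59 to 2.09 in the K36M comparison, with adjusted p from limma of 0.0346 or less. Control embryo replicate 4 had a Gmnn TPM of 20.8, below each of the other two-cell embryos and FGOs. With it added, the log2 fold change was 1.42 (adjusted p = 0.163 from limma) in the control comparison and 1.79 (adjusted p = 0.0703) in the K36M comparison, which shares the estimate of spread, so neither call was kept.

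Mean Mcm4 was 162.4 ± 5.74 TPM over the 3 control FGO libraries and 38.8 ± 21.5 TPM over the 7 control embryos (SD). All 7 control embryos lay below all 3 control FGO libraries, and the log2 fold change was -2.22 (SE 0.54, 95% interval -3.34 to -1.10, adjusted p = 0.00358 from limma). This call was kept under each alternative and with each library left out, with estimates from -2.53 to -1.82. In K36M oocyte-derived embryos the mean was 86.7 ± 55.4 (SD, n = 8), 7 of 8 lay below the K36M FGO range, and the log2 fold change was -1.22 (SE 0.53, 95% interval -2.32 to -0.13, adjusted p = 0.0873 from limma). It passed the threshold with array weights (-1.24, adjusted p = 0.0019), with median-of-ratios scaling (-1.39, adjusted p = 0.0480) and without K36M embryo replicate 1 (-1.41, adjusted p = 0.0393), all from limma.

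Of the other helicase subunits, Mcm3 and Mcm5 also had no overlap between control FGOs and control embryos, with all 7 embryos lower. In all, 4 of the 10 genes had groups that did not overlap in the control comparison, against 32.3% of all genes, and none of the 10 did in the K36M comparison, against 26.2%. The log2 fold changes in the control comparison were -1.06 for Mcm3 (SE 0.46, adjusted p = 0.0882 from limma) and -1.53 for Mcm5 (SE 0.80, adjusted p = 0.169 from limma). Mcm3 passed the threshold with quantile normalization (adjusted p = 0.0456), median-of-ratios scaling (0.0275), the 2 groups fitted alone (0.0450) and array weights (0.00246), and Mcm5 with the 2 groups alone (0.0251) and array weights (0.00176), all from limma. In the K36M comparison they were -0.33 and -1.68, with 4 of 8 embryos below the FGO range for Mcm3 and 7 of 8 for Mcm5, which passed there with array weights (adjusted p = 0.00502 from limma) and without K36M embryo replicate 1 (0.0353). Mcm2 and Mcm7 had estimates near 0 in the control comparison, -0.02 and -0.07, with 95% intervals that reached about 1 unit on either side. In the K36M comparison they had -0.57 and 0.23, and -0.77 to -0.21 and 0.04 to 0.41 with 1 library left out. Mcm6 had -0.76 in the control and -0.80 in the K36M comparison, and 6 of 7 and 5 of 8 embryos lay below its FGO range.

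The loading factors had negative estimates in control embryos that did not pass the test. Cdc6 had -0.95 (SE 0.48, adjusted p = 0.146 from limma) and Cdt1 had -1.78 (SE 0.85, adjusted p = 0.126 from limma), and 6 of 7 control embryos lay below the FGO range of each. Cdc6 passed with median-of-ratios scaling (-1.26, adjusted p = 0.0486) and array weights (-0.86, adjusted p = 0.00908), and Cdt1 with array weights (-1.21, adjusted p = 0.0190), all from limma. In the K36M comparison Cdc6 and Cdt1 had -0.31 and -0.86, and -0.40 to -0.14 and -1.01 to -0.58 with 1 library left out. Orc1 had -0.24 and 0.09, and its embryos lay on both sides of the FGO range in both groups. The count of called genes in the control comparison depended on the setting: it was 3 with quantile normalization, 4 with median-of-ratios scaling, 4 with the 2 groups fitted alone, 6 with array weights, which let libraries differ in spread, and 1 with control replicate 4 added. The shares of all genes called under these settings were 30.2%, 29.1%, 30.5%, 56.1% and 23.1%.

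**Figure D2:**
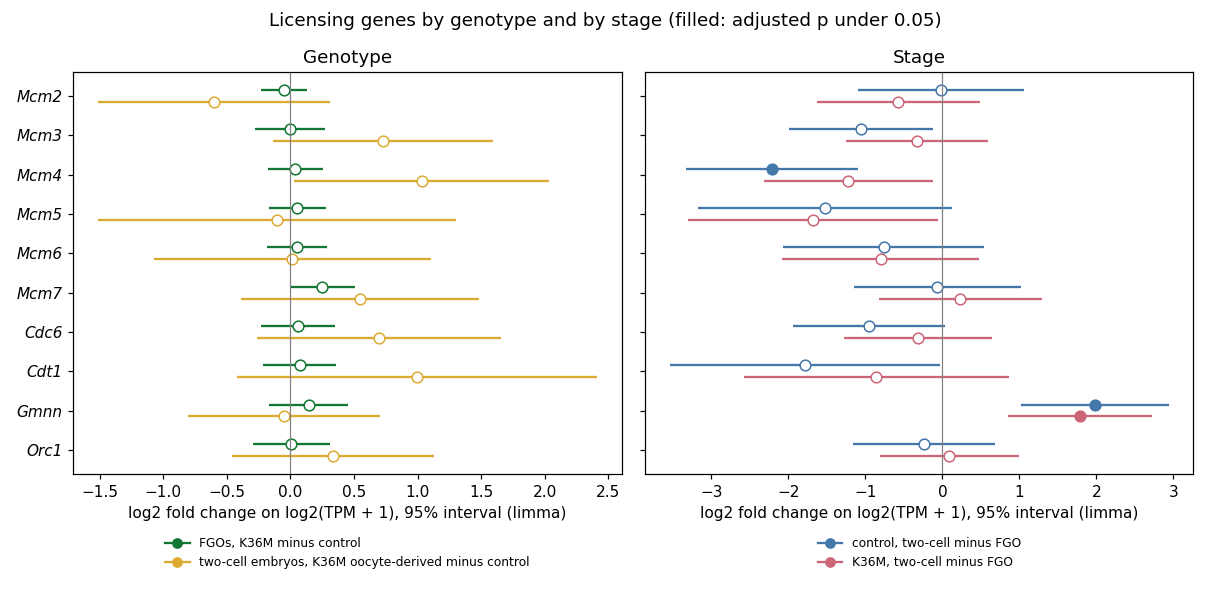
Log2 fold changes on log2(TPM + 1) with 95% intervals from limma for each licensing gene, by genotype on the left (K36M minus control, in FGOs and in two-cell embryos) and by stage on the right (two-cell embryos minus FGOs, in control and in K36M). Filled symbols mark an adjusted p under 0.05, which Gmnn reached in both stage comparisons and Mcm4 in the control one.

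The stage difference was then compared between the genotypes, in the same fit with 1 spread per gene for FGO pools and single embryos. None of the 10 genes reached an adjusted p of 0.05 for this interaction in limma, as for all 17358 genes (0%), and none had an unadjusted p under 0.05, against 1.15% of all genes. This share was 0.615% to 1.78% with 1 library left out, 2.18% with all genes above 0 and 10.3% with array weights, where 1 of the 10 genes had such a p. The estimate of Mcm4 was 0.99 (SE 0.76, 95% interval -0.57 to 2.56) and that of Gmnn was -0.19 (SE 0.65). The call of Mcm4 in the control and not in the K36M comparison is thus not a difference that this test found, and the interval does not show that the genotypes were alike.

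The 6 helicase subunits stand in equal number in the MCM ring, and their transcripts were read together for this reason. Their summed TPM was 649.3 ± 24.7 for control and 668.3 ± 39.1 for K36M FGOs (SD, n = 3 each). In embryos it was 394.7 ± 91.3 (SD, n = 7) for control, from 234.3 to 490.7, and for K36M oocytes 510.1 ± 168.9 (SD, n = 8), from 281.2 to 750.2. The sum of every control embryo lay below that of every control FGO library, while 2 of 8 K36M oocyte-derived embryos lay inside or above the range of the K36M FGOs.

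FGO libraries shared one profile over the subunits. Mcm4 was the highest and Mcm7 the lowest in 6 of 6 FGO libraries, and the highest subunit had 3.03 ± 0.18 times the TPM of the lowest in control and 2.60 ± 0.25 times in K36M FGOs (SD, n = 3 each). In control embryos Mcm2 was the highest in 7 of 7, and the lowest was Mcm5 in 4, Mcm4 in 2 and Mcm7 in 1. K36M oocyte-derived embryos had no common profile, with Mcm2 the highest in 3, Mcm4 in 3, Mcm6 in 1 and Mcm7 in 1. The ratio of the highest to the lowest subunit was 3.10, 6.29 and 10.7 (lowest, median and highest) in control and 4.63, 7.33 and 43.8 in K36M oocyte-derived embryos. Mcm4 relative to Mcm2 was 1.16 to 1.23 in control and 1.14 to 1.40 in K36M FGOs, 0.0937 to 0.667 in control embryos and 0.213 to 6.74 in K36M oocyte-derived embryos.

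**Figure D3:**
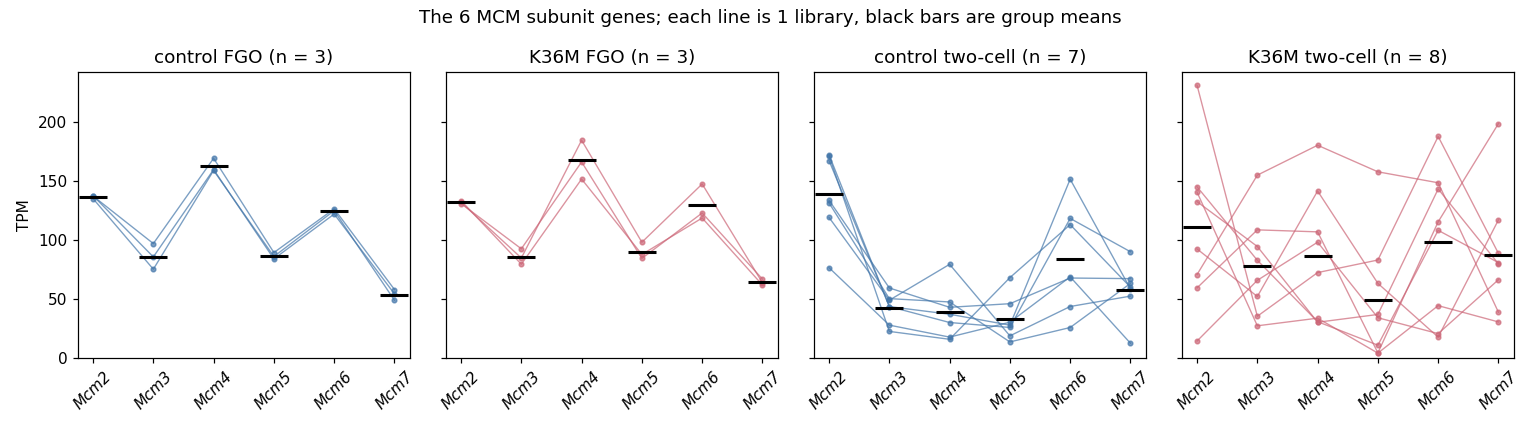
TPM of Mcm2 to Mcm7 in control FGOs, K36M FGOs, control two-cell embryos and K36M oocyte-derived two-cell embryos, with 1 line for each library and black bars at the group means. The FGO lines run together with a peak at Mcm4, the control embryo lines start high at Mcm2, and the K36M oocyte-derived lines cross one another.

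Geminin and its target CDT1 were set against each other. In FGOs Gmnn had 0.677 to 0.862 times the TPM of Cdt1 in control and 0.595 to 0.927 times in K36M libraries. In control embryos the ratio was 2.43, 5.98 and 97.5 (lowest, median and highest of 7), and in K36M oocyte-derived embryos it was 2.06, 3.23 and 51.5 (of 8). Gmnn was thus below Cdt1 in 6 of 6 FGO libraries and above it in 15 of 15 embryos, while in control replicate 4 it was below, at a ratio of 0.210. The highest ratios belonged to control replicates 6 and 8 and K36M replicate 8, in which Cdt1 had a TPM of 3.46, 7.97 and 22.6. Gmnn was at 337.4, 429.9 and 1166 there, the first being the lowest control value and the last the highest of all.

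**Figure D4:**
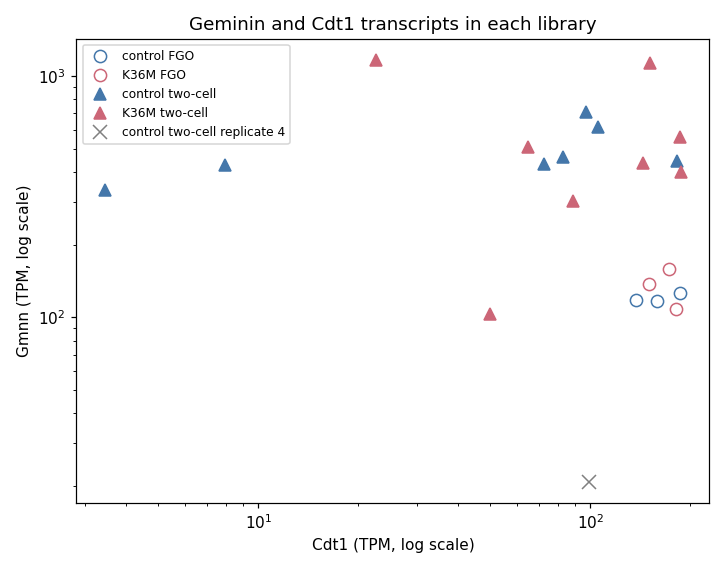
TPM of Gmnn against that of Cdt1 in each library, both on log scales, with FGOs as open circles, two-cell embryos as triangles and control two-cell replicate 4 as a cross. Of the 15 embryos used, all but K36M replicate 3, at a TPM of 102.8, lie above the FGOs of their genotype on the Gmnn axis, control replicate 4 lies below all FGOs at 20.8, and 3 embryos reach low Cdt1 values down to 3.46.

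Single embryos differed far more than FGO pools. The median SD of log2(TPM + 1) over the 10 genes was 0.76 in control and 1.04 in K36M oocyte-derived embryos, against 1.26 and 1.45 over all genes whose mean TPM was 1 or more. It was smallest for Gmnn (0.36) and largest for Cdt1 (2.03) among control embryos, and smallest for Cdc6 (0.61) and largest for Mcm5 (1.82) among K36M oocyte-derived embryos. Some embryos were the lowest of their group for several of the 10 genes. Control replicate 6 had the lowest level of its group for 5 genes, Mcm2, Mcm7, Cdc6, Cdt1 and Gmnn, and K36M replicate 3 for 4, Mcm3, Mcm5, Mcm7 and Gmnn. K36M replicate 1 had the highest level of its group for Mcm3, Mcm4, Mcm5 and Orc1. No licensing gene was at 0 in any library.

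Other genes of replication were read beside the licensing genes between the stages, from lists of origin, firing, fork and regulatory factors. None of the tested genes on them, which hold 83 in all, was called between the genotypes in FGOs, in embryos or for the interaction, so a call in 1 stage comparison and not in the other is not shown to differ between them. Their counts are read against the 26.6% of all genes called in the control (13.4% higher and 13.2% lower) and the 29.3% called in the K36M stage comparison (10.8% higher and 18.6% lower). Of 10 other origin recognition and loading factors, 2 rose and 2 fell in the control comparison, and 4 rose and 3 fell in the K36M comparison. Orc5, a subunit of the same complex as ORC1, fell from a TPM of 487.6 ± 11.3 (SD, n = 3) to 24.6 ± 16.5 (SD, n = 7) in control, for a log2 fold change of -4.59 (SE 1.17, adjusted p = 0.00508 from limma), and by -5.17 in K36M. Orc3 fell in control (-2.74) and Orc4 in K36M (-1.47), while Orc6 rose in both (1.35 and 1.41). Rif1, which restrains origin firing, rose by 1.05 in control and 1.16 in K36M, and in K36M Noc3l rose (1.51) and Lrwd1 fell (-2.66).

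Of 14 genes of helicase activation and origin firing, 3 rose and 4 fell in each comparison, against 26.6% and 29.3% of all genes called. Cdc45, which joins MCM and GINS in the active helicase, rose from a TPM of 55.8 ± 5.61 (SD, n = 3) to 306.9 ± 93.9 (SD, n = 7) in control, for a log2 fold change of 2.38 (SE 0.42, adjusted p = 0.000154 from limma), and by 2.18 in K36M. The GINS subunit Gins2 fell in both (-2.29 and -2.32), as did Mcm10 (-2.05 and -2.15), a factor needed to start unwinding. Gins1 fell in control (-4.45) and Cdc7, the kinase that phosphorylates MCM, in K36M (-3.48). Of the 15 tested genes of cyclins, their kinases and ubiquitin ligases that control licensing, 4 rose and 3 fell in control and 4 rose and 4 fell in K36M, against the same 26.6% and 29.3%.

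The largest rise on these lists was that of Ccne1, cyclin E1, which activates CDK2 at the start of S phase. Its mean TPM was 11.7 ± 1.49 (SD, n = 3) before, in control FGOs, and 907 ± 274 (SD, n = 7) in control embryos, and its log2 fold change was 6.11 in control (SE 0.29, adjusted p = 2.58e-13 from limma) and 5.61 in K36M. Cul4a, a scaffold of the ligase that marks CDT1 for degradation, fell in both (-2.71 and -4.35). Fzr1, an activator of the ligase that degrades geminin, fell in both (-2.58 and -2.80), as did Ccnb1 (-1.82 and -1.34), and Cdc20 rose in both (1.59 and 1.84).

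Of 26 genes of the replication fork, 1 rose and 6 fell in control and 1 rose and 8 fell in K36M, against 26.6% and 29.3% of all genes called, and the median over the list was -0.87 and -1.28, beside 0.00 and -0.18 for all genes. Among those called were genes of the clamp loader, single-strand binding, ligation and a polymerase subunit: Rfc3 fell in both (-4.97 and -5.20), Rfc2 in both (-3.61 and -4.55), Rpa1 in both (-3.43 and -3.32), Lig1 in both (-3.21 and -3.11) and Rfc4 (-3.85) and Pold1 (-3.22) in K36M. Of the 12 tested genes of the E2F and RB families, 3 rose and 2 fell in control and 2 rose and 1 fell in K36M, against 26.6% and 29.3% of all genes called. E2f7, a repressive E2F, rose from a TPM of 0.986 ± 0.360 (SD, n = 3) to 49.0 ± 29.6 (SD, n = 7) in control, for a log2 fold change of 4.46 (SE 0.61, adjusted p = 6.83e-06 from limma), and by 4.81 in K36M. E2f5 fell in both (-1.51 and -1.53), E2f4 rose in both (1.37 and 1.43), and E2f1 rose (1.42) and Rbl1 fell (-1.86) in control. Mcm8, which acts outside the replicative hexamer, fell in both (-2.62 and -3.76), and it was the member called of 3 such MCM paralogs.

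**Figure D5:**
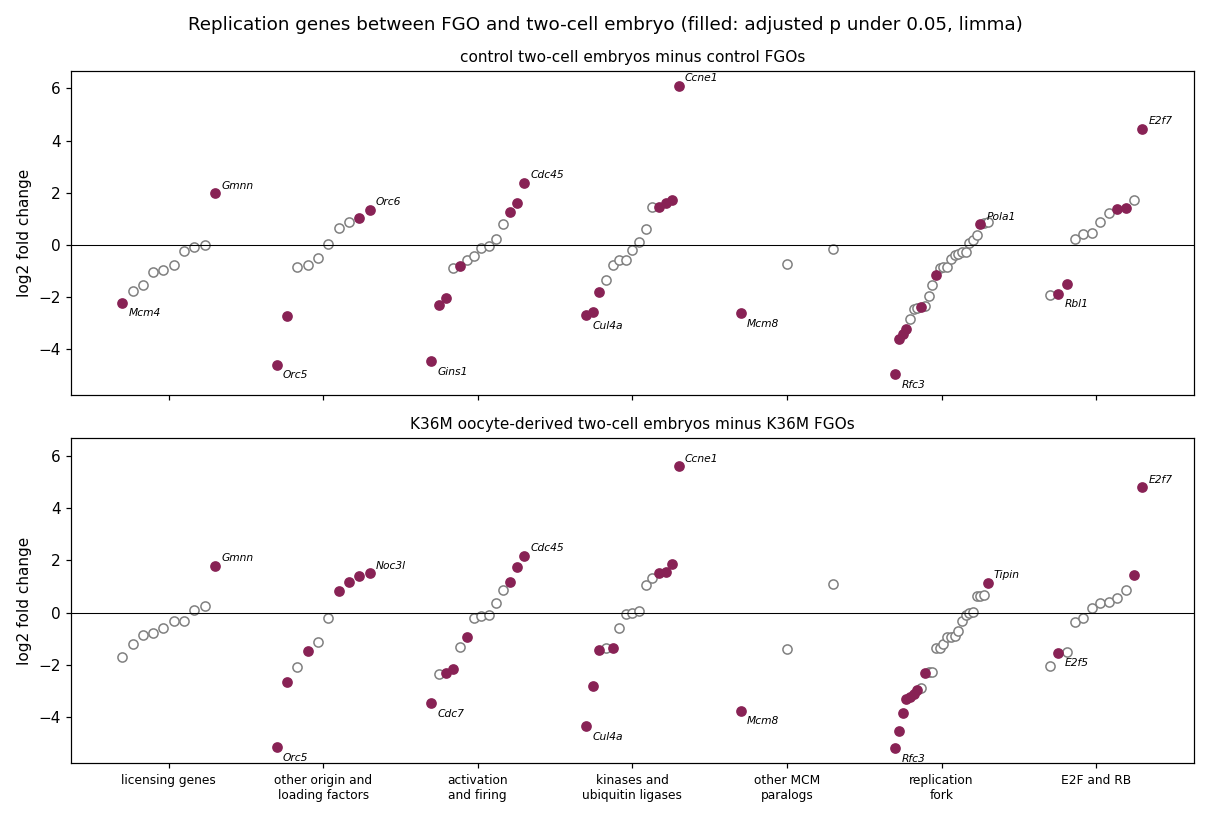
Log2 fold change from FGOs to two-cell embryos for the genes of each replication list, in control above and in K36M below, ordered by value within a list, with filled points for an adjusted p under 0.05 from limma. Names stand at the lowest and highest called gene of each list, and Ccne1, at 6.11 and 5.61, is the highest point of both panels.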

How the data were processed

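RNA-seq was analysed in 6 FGO libraries and 15 two-cell embryos, grouped by their labels. The authors trimmed reads with Trim Galore, mapped them to mm10 with Hisat2, removed ribosomal RNA reads with BEDTools, counted genes with featureCounts, tested counts with edgeR and deposited TPM values. The gene annotation, gene lengths and strand setting of the counting are not given in the sources used here. TPM keeps no depth, so no interval for read counts could be made.

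The limma package (3.58.1, under R 4.3.3) was run on log2(TPM + 1), with lmFit and a trended eBayes. Genes entered if their mean TPM over the fitted libraries was 1 or more, p-values were adjusted over all of them by Benjamini-Hochberg, and 0.05 was the threshold. Changes of low genes come out too small on this scale. FGOs and embryos were fitted apart for genotype, and stage and interaction came from 1 fit of 4 group means. The script was tested on simulated data. Where nothing says that samples came from separate animals, p-values measure the spread between these samples. Alternatives were a pseudocount of 0.1, all genes above 0, a minimum mean TPM of 5, median-of-ratios scaling, quantile normalization, no trend, array weights, a replicate block, control two-cell replicate 4 added, the 2 groups of a stage comparison alone, and each library left out.

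The genes and lists were chosen with earlier results of these data known. All 10 licensing genes were named, and up to 4 called genes of each other list in each stage comparison by size of change, with Pold1 added after its values were seen. Positions came from GENCODE vM21 and promoter sequences from RefSeq, both on GRCm38. Python 3.11.15, pandas 2.3.3, numpy 2.4.6 and matplotlib 3.10.9 were used. Allele-specific, chromatin and methylation data were not analysed here.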

Additional observations from a re-analysis of the deposited data

Results flagged for a closer look

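On the log2(TPM + 1) scale, single samples were set against their groups 30 times, covering each licensing gene in control embryos with and without replicate 4 and in K36M oocyte-derived embryos, and 3 times the group had a highest or lowest sample beyond Dixon's 95% limit, and chance gives about 1.5. The Mcm7 TPM of control embryo replicate 6 was 12.7, while the other 6 lay between 52.5 and 90.0. It stood apart on the log2 scale among the 7 embryos and again, at the same TPM of 12.7, among the 8 with replicate 4. The Gmnn TPM of control embryo replicate 4 was 20.8, and the other 7 had 337.4 to 710.7. In that embryo Mcm4 was 114.2, Mcm3 137.7 and Mcm2 198.9, each above the other control embryos, and Cdt1 was 99.0, inside their range. Replicate 4 also had a summed TPM of 6733 for the 8 oocyte markers, above the other embryos, and Zscan4c, Zscan4d, Zscan4f and Usp17lc at 0; the part of these in its licensing transcripts was not tested. On linear TPM, a scale chosen after seeing the data, none of these 3 was beyond the limit, and the sample that was beyond it was control replicate 4 for Mcm3, at 137.7.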

How the results depend on the processing

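Gmnn and Mcm4 kept the direction of their stage differences under every alternative run. Among the licensing genes, the number called from control FGOs to control embryos was 4 with median-of-ratios scaling and 4 with the 2 groups alone. With array weights it was 6, and with control replicate 4 added it was 1. The shares of all genes called under these settings were 29.1%, 30.5%, 56.1% and 23.1%. From K36M FGOs to K36M oocyte-derived embryos the number was 2 with median-of-ratios scaling, 3 with array weights and 0 with replicate 4 added. It was 1 to 3 with a library left out, 3 being without K36M embryo replicate 1. The shares of all genes called were 31.4%, 49.1%, 26.6% and 19.7% to 31.2%, and 30.3% without that embryo. Array weights raised the genes called to 9730 in the control and 8527 in the K36M stage comparison, and with a library left out the former was 2844 to 4930, lowest without a control FGO library. With a library left out, genes called in FGOs were 0 to 300, the most without K36M replicate 1, and 0 with a pseudocount of 0.1, with all genes above 0, or without a trend. In two-cell embryos they were 5 without a trend, 1 with array weights and 0 to 1 with a library left out. For the interaction they were 13 with all genes above 0, 1 without a trend, 3 with array weights and 0 to 3 with a library left out. The median level of the 10 genes in control FGOs was 123.5 with median-of-ratios scaling and 115.6 as deposited.

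The replicate numbers were also used as a replicate block. Same-numbered libraries shared little deviation (correlations of 0.015 to 0.10 in FGOs and -0.10 to 0.097 in embryos). The own number was the best match for FGO replicates 1 and 3, and among embryos for replicate 1 only. A pairing was thus not seen in embryos, and 3 libraries per group cannot exclude one in FGOs. With the block, genes called in FGOs were 0. The K36M stage comparison called 0 licensing genes, against 24.2% of all genes (Gmnn 1.47, adjusted p = 0.0558 from limma). Estimates near 0 changed sign there for Mcm7 (-0.082) and Orc1 (-0.042), and between embryos for Mcm6 (-0.18).

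Other signs that changed belonged to uncalled genes whose estimates, as reported, lay within 1 standard error of 0. Quantile normalization gave -0.026 for Orc1 in FGOs, 0.22 for Mcm5 in embryos, and 0.21 for Mcm5 and 0.085 for Mcm6 in the interaction. Median-of-ratios scaling gave -0.00066 for Orc1 in FGOs, 0.058 for Gmnn in embryos, -0.076 for Orc1 in the K36M stage comparison and 0.11 for Mcm6 in the interaction. Array weights gave -0.14 for Mcm6 in embryos and 0.076 for Mcm2 and 0.15 for Mcm7 in the control stage comparison. With replicate 4 they were -0.017 for Mcm6 and 0.51 for Gmnn in embryos, 0.047 for Mcm2 in the control stage comparison and 0.36 for Gmnn in the interaction. With a library left out, FGO estimates ran from -0.0070 to 0.12 for Cdc6, -0.034 to 0.18 for Cdt1, -0.092 to 0.088 for Mcm3, -0.034 to 0.11 for Mcm4, -0.0060 to 0.10 for Mcm5, -0.043 to 0.11 for Mcm6 and -0.12 to 0.11 for Orc1. Between embryos they ran from -0.24 to 0.26 for Gmnn, -0.46 to 0.24 for Mcm5 and -0.23 to 0.30 for Mcm6. In the stage comparisons they ran from -0.057 to 0.27 for Orc1 in K36M, and from -0.083 to 0.11 for Mcm2 and -0.20 to 0.26 for Mcm7 in control. In the interaction they ran from -0.39 to 0.11 for Gmnn, -0.51 to 0.19 for Mcm5, -0.28 to 0.25 for Mcm6 and -0.024 to 0.48 for Mcm7. TPM does not keep the reads behind a gene, and the small groups of FGOs and the spread between single embryos limit the size of change that could be called. The causes of these shifts were not tested.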
